A study of Mus musculus with 20 samples.

Results

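Cytosolic heat shock chaperones are represented here by 7 genes: Hsp90aa1, Hsp90ab1, Hspa8, Hspa4, Hsph1, Dnaja1 and Dnajb1. Their members in the data are the m6A peaks that the authors' annotation names after one of these genes. There are 25 such peaks among 25992 in all, 15 in the table for CD4 and CD8 double-positive (DP) thymocytes and 10 in the table for invariant natural killer T (iNKT) cells. The genes were selected on their peaks, fold changes and false discovery rates (FDRs) in these same tables, so every count of members below is a description and no test was made on it.

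The series measured N6-methyladenosine (m6A), a mark on messenger RNA, by sequencing RNA fragments pulled down with an antibody against it beside the input RNA. DP cells (7AAD-CD1d-Tet-CD4+CD8+) and iNKT cells (7AAD-CD1d-Tet+TCRbeta+) were sorted from the thymus of C57BL/6 mice aged 6 to 8 weeks. The mice were wild type (WT) or Mettl3fl/flCD4-cre, in which floxed Mettl3, the gene of the catalytic m6A writer, is deleted by a Cre recombinase driven from Cd4. This Cre becomes active around the DP stage, from which iNKT cells descend, and whether every sorted cell had lost Mettl3 was not measured here. The series comprises 20 libraries in 8 groups, with 3 replicates of input and 3 of m6A for each genotype in iNKT cells and 2 of each in DP cells. Of the markers listed for each cell type, 4 of 9 DP markers (Cd4, Cd8a, Cd8b1 and Rag1) had a peak in the DP table, where the Rag1 peak was higher. In the table for iNKT cells 4 of 9 DP markers had a peak as well, lower for Cd8a, Cd8b1 and Rag1 and higher for Cd1d1. Of the iNKT markers, 10 of 12 had a peak in the table for iNKT cells, Zbtb16 among them, and 4 of 12 in the DP table. In iNKT cells 6 of these markers had a lower peak (Cxcr3, Cxcr6, Gata3, Il2rb, Tbx21 and Zbtb16), and Gata3 and Il2rb also had a higher one. Of all genes with a peak in iNKT cells, 26.2% had a lower one and 9.64% a higher one. In DP cells these shares were 1.44% and 0.876%. Markers of other thymus cells had a peak for 2 of 12 genes (Csf1r and Pecam1) in the DP table, and Itgax and Pecam1 were among those with a peak in the iNKT table. The part of all these markers in the values below was not tested.

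For each peak the tables give 1 fold enrichment of immunoprecipitate over input, 1 log2 fold change of methylation between genotypes and 1 FDR of that change, with no value per library. Library depth is therefore unknown, the spread between replicates cannot be set beside a value, and how far the FDRs include differences among mice is not known. No header says which genotype a positive fold change favours. The value is read here as likely Mettl3-deleted against WT, because the authors' deposited list of genes for each cell type holds 4336 of 4337 DP genes and 5339 of 5343 iNKT genes that have a negative peak, and no gene without one. "Lower" and "higher" follow this likely direction and require an FDR of 0.05 or less. With the sign turned, each lower peak would be a higher one.

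The cytosolic chaperones work as a relay. J-domain proteins such as the products of Dnaja1 and Dnajb1 bring unfolded proteins to Hsp70, whose constitutive form is encoded by Hspa8, and stimulate it to hydrolyse ATP. The Hsp110 proteins encoded by Hspa4 and Hsph1 exchange the spent ADP for ATP, and the Hsp90 proteins encoded by Hsp90aa1 and Hsp90ab1 take over clients such as kinases and steroid receptors at a late stage of folding. In T cells the Hsp90 clients include the receptor-proximal kinase Lck. Several of these genes are induced by heat shock factor 1, and heat shock transcripts are known to carry m6A near their 5' ends under stress. Several of the 7 genes have processed pseudogenes or close paralogs. How reads that fit more than 1 copy were assigned is not given in the sources used here, so the values of Hsp90aa1, Hsp90ab1, Hspa8 and Dnaja1 are uncertain to that extent.

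In DP cells the chaperone peaks changed little, and in iNKT cells most of them changed by several-fold and in both directions. Of the 15 DP peaks, 3 were lower (in Hsp90ab1, Hspa8 and Dnaja1) and 0 were higher in the authors' deposited table. Over all DP peaks of that table, 0.743% were lower and 0.483% were higher. Of the 10 iNKT peaks, 5 were lower (in Hsp90aa1, Hsp90ab1 and Dnajb1) and 2 were higher (in Hsp90ab1 and Hsph1), against 19.8% lower and 5.84% higher over all iNKT peaks of the authors' deposited table. Because the genes were chosen with these calls known, nothing is read from the excess. The median log2 fold change of the member peaks was -0.264 in DP cells, where all peaks of the authors' deposited table had a median of 0. In iNKT cells it was -1.99, where all peaks of the authors' deposited table had -0.976. Member values ran from -1.06 to 0.598 in DP cells and from -8.84 to 5.20 in iNKT cells in the authors' deposited tables. Over all peaks they ran from -4.17 to 3.75 in DP cells and from -9.55 to 12.5 in iNKT cells. The wider iNKT range was thus not particular to the members.

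**Figure D1:**
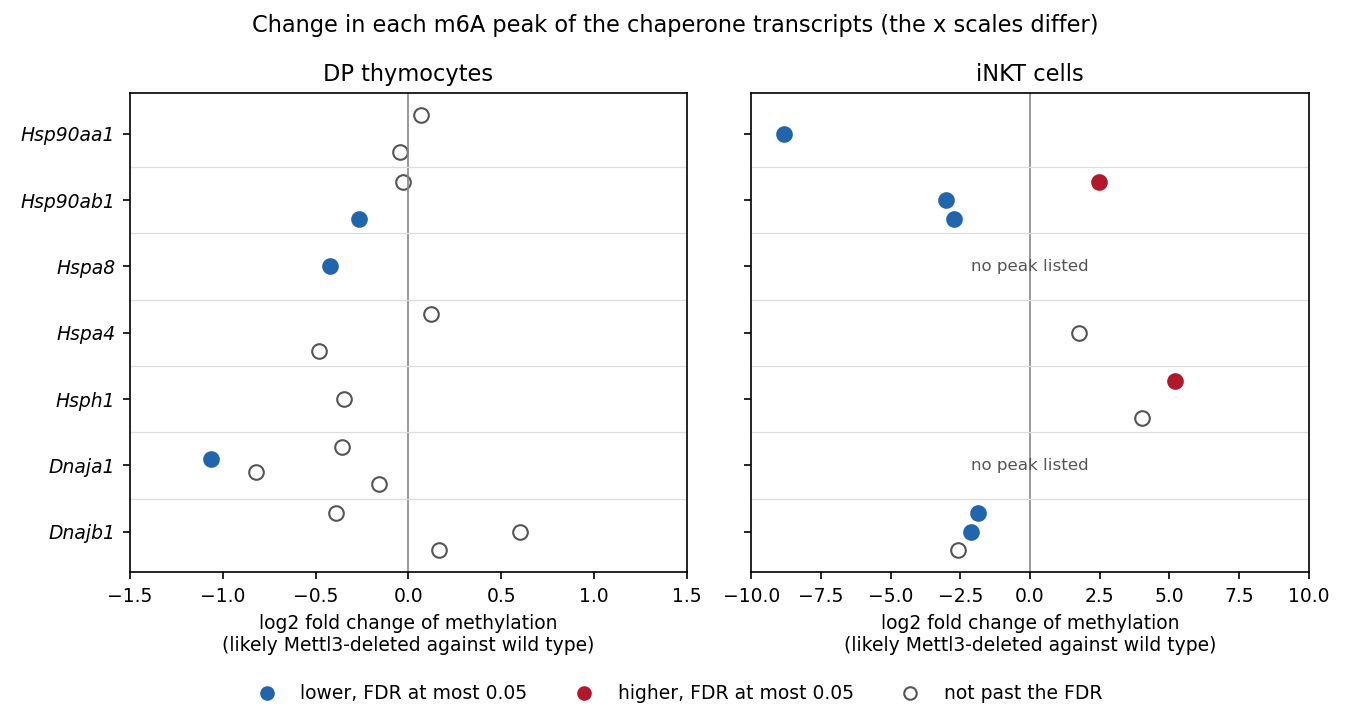
Log2 fold change of methylation for each m6A peak of the 7 chaperone genes (rows) in DP thymocytes (left) and iNKT cells (right), on different x scales, with 1 circle per peak ordered from the 5' to the 3' end within a row. Filled circles passed an FDR of 0.05. All DP values lie between -1.06 and 0.598, while iNKT values reach -8.84 for Hsp90aa1 and 5.20 for Hsph1, and Hspa8 and Dnaja1 have no iNKT peak.

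Hsp90aa1 encodes the stress-inducible cytosolic Hsp90 and lies on chromosome 12, 110691036 to 110696395 in RefSeq (GRCm38.p6, the assembly also called mm10, to which all coordinates here refer). Both DP peaks were flat. The peak that starts in exon 3 (110693863 to 110695327) had a log2 fold change of 0.0676 (FDR 0.62), and the peak around exon 7 (110692290 to 110693408) had -0.0465 (FDR 0.65) in the authors' deposited table. The single iNKT peak, 209 nt over 2 blocks at 110694158 to 110694593 in exon 4, lies wholly inside the first of these DP peaks. Its log2 fold change was -8.84 (FDR 1e-140) in the authors' deposited table, a 458-fold difference and rank 4 of 12542 peaks from the most negative. Its fold enrichment over input was 2.77, at the 10.8th percentile of the authors' deposited table. A change of this size in a weakly enriched peak has no value per library here to show which genotype's reads set it.

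Hsp90ab1 encodes the constitutive Hsp90 (chromosome 17, 45567778 to 45573261). Of the 5 members with an iNKT peak it was the only one with passing peaks of both signs, a pattern found in 166 of 6774 iNKT genes. Its peak around exons 8 and 9 was lower in both tables. In DP cells this peak (45568449 to 45569253) had a log2 fold change of -0.264 (FDR 1.4e-06), rank 10 by FDR in the authors' deposited table. In iNKT cells the matching peak (45568539 to 45569043) had -2.71 in the authors' deposited table, with a log10 of the FDR of -320. A second internal peak differed between the tables. It had -0.0319 (FDR 0.62) in DP cells at 45570276 to 45571124 in the authors' deposited table. In iNKT cells it had -3.03 at 45570336 to 45570636 in the authors' deposited table, with a log10 of the FDR of -434, the lowest value listed, which 21 peaks share. The DP annotation calls this peak 3' UTR and the iNKT annotation calls it exon 6 of 11. It begins 2137 nt into a gene of 5484 nt and so lies in the middle of the gene.

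The third iNKT peak of Hsp90ab1 sits at the opposite end of the transcript and went the other way. It spans the gene's start (45572480 to 45573271, annotated 5' UTR, 181 nt over 2 blocks) and was higher, with a log2 fold change of 2.48 (FDR 8.1e-06) in the authors' deposited table. Its enrichment over input was 4.49, close to that of the internal peaks (3.64 and 4.93) in the authors' deposited table. By peak p-value it was weaker, ranked 4127 of 12542 iNKT peaks, where those internal peaks ranked 44 and 92. No DP peak was listed at the gene's start.

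Hspa8 encodes Hsc70, the constitutive Hsp70, and lies on chromosome 9, 40801276 to 40805202. Its only peak in either table was a DP peak of 330 nt in exon 8 (40804449 to 40804778), whose last 31 nt also overlap Snord14e, a small nucleolar RNA gene within Hspa8. It was lower, with a log2 fold change of -0.422 (FDR 0.03) in the authors' deposited table. Its enrichment of 1.79 was at the 5.41st percentile of the DP peaks, the lowest of the 25 member peaks in the authors' deposited tables. At an FDR of 0.01 it did not pass. No iNKT peak was named after Hspa8 or lay in it under another name, which says only that none was called there.

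The Hsp110 genes had peaks at different places in the 2 cell types. Hspa4 (chromosome 11, 53259814 to 53300479) had DP peaks only toward its 3' end. They had log2 fold changes of 0.121 (FDR 0.62, around exon 13) and -0.484 (FDR 0.41, around exon 17) in the authors' deposited table. Its iNKT peak was 180 nt at the other end of the gene (53300278 to 53300457), beginning 22 nt inside the RefSeq start. It had a log2 fold change of 1.77 and missed the threshold (FDR 0.31) in the authors' deposited table.

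Hsph1, which encodes Hsp105 (chromosome 5, 149616843 to 149636498), also had its DP peak and a 5' iNKT peak at opposite ends. The DP peak, toward the 3' end (149618850 to 149620759, 4 blocks around exon 13), had -0.348 and did not pass (FDR 0.56) in the authors' deposited table. Its iNKT peak in the 5' UTR (149636047 to 149636227) was higher, with a log2 fold change of 5.20 (FDR 1.3e-14) in the authors' deposited table, a 36.8-fold difference. A second iNKT peak of 121 nt (149622343 to 149622463), at 71.4% of the gene's length from the 5' end and so nearer to the DP peak, had 4.0 and missed the threshold (FDR 0.3) in the authors' deposited table, and its peak p-value was among the weakest, ranked 11971 of 12542. Both iNKT peaks of Hsph1 were positive, and so was that of Hspa4, so neither gene is in the authors' iNKT gene list. Hsph1 is a classical target of heat shock factor 1, whose binding element is built from inverted GAA and TTC units. One such unit, shown because it stands next to the transcript end whose peak was higher, lies 33 nt before a RefSeq transcript start of Hsph1, and 129 nt inside the gene as RefSeq bounds it, whose 5' end is further upstream (chr5:149636352-149636375, minus strand, GRCm38.p6). The letters TTCNNGAA, which read the same on both strands, are in capitals.

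Hsph1 promoter: gaatctTTCTCGAAggctcgagaa

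Of the 7 genes, 4 (Dnaja1, Dnajb1, Hspa4 and Hsph1) have promoter windows in the RefSeq table used, 8 windows of 300 nt in all, which run from 250 nt before to 50 nt after a start. TTCNNGAA occurred in 2 of these 8 windows, both of Hsph1, and in 8.52% of all 32851 windows. The 2 Hsph1 windows overlap, and both hold the site shown above. The Dnaja1 windows that begin at 40722672 and 40722680 overlap as well, so the 8 windows are not separate promoters. The related arrangement GAANNTTC occurred in 3 windows, of Dnaja1 and Hsph1, and in 7.86% of all. The match is a description of letters, and binding was not measured.

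Dnaja1 encodes a J-domain protein that carries clients to Hsc70 (chromosome 4, 40722468 to 40734965). All 4 of its DP peaks had negative values, and 1 passed. That peak, 271 nt over 2 blocks around exon 5 (40727997 to 40730256), had a log2 fold change of -1.06 (FDR 0.01) in the authors' deposited table, a 2.08-fold difference and the largest of the DP member peaks. The others, from 5' to 3', had -0.356 (FDR 0.31), -0.823 (FDR 0.55) and -0.156 (FDR 0.67) in the authors' deposited table. No iNKT peak was named after Dnaja1 or lay in it.

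Dnajb1 encodes Hsp40, the J-domain partner of the inducible Hsp70 (chromosome 8, 83608175 to 83612653). It had 3 peaks in each table and, in iNKT cells, the strongest enrichment of the members. No DP peak passed. The peak at the gene's start (83608193 to 83608592) had -0.390 (FDR 0.2), the middle peak (83609855 to 83610274) had 0.598 (FDR 0.13), and the peak at 83610767 to 83611066 had 0.164 (FDR 0.65) in the authors' deposited table. The middle value was the highest of the DP member peaks, with the FDR nearest to the threshold among those that missed it.

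In iNKT cells all 3 Dnajb1 peaks were negative. The middle peak (83609885 to 83610184) had a log2 fold change of -1.87 (FDR 1.5e-08) and an enrichment of 18 in the authors' deposited table. The next (83610767 to 83611186, 3' UTR) had -2.10 (FDR 0.00093) and an enrichment of 104, at the 96.8th percentile of the authors' deposited table. The last (83611396 to 83611635, 3' UTR) had the largest fold change of the 3, -2.58, and did not pass (FDR 0.25) in the authors' deposited table. The middle peak is annotated 5' UTR in both tables although it begins 1680 nt (DP) or 1710 nt (iNKT) into a gene of 4479 nt. RefSeq lists a second start of Dnajb1 at 83608548, besides that at 83608175.

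The start of the Dnajb1 coding sequence lies inside the first block of its 5'-most DP peak and is shown because its bases are in the reference table and lie within a member peak. It covers 211 nt (chr8:83608332-83608542, plus strand, GRCm38.p6) from the first ATG after the RefSeq start to the end of the block, with 0 stop codons in the 70 whole codons. Capitals mark GGAC, the most frequent core of the m6A consensus. It occurred 2 times in the sense strand, the first 8 nt after the A of the ATG, and 1 time in the antisense strand.

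Dnajb1 coding start in the DP peak: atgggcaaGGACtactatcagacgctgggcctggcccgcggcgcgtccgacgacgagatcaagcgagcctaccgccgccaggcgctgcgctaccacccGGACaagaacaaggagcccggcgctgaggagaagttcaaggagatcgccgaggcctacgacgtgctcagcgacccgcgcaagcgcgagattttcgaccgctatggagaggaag

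GGAC is common. It was present on the sense strand of 65.6% of all promoter windows of 300 nt and on either strand of 87.7%, and all 8 member windows held it on either strand. Of each window, 250 nt lie before a start, whereas the stretch shown is 211 nt of coding sequence. The windows thus differ from it in kind and length, and no share over coding sequence was computed. The match does not show which adenosine, if any, was methylated. The tables give intervals of 121 to 745 nt for the members and no single base.

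**Figure D2:**
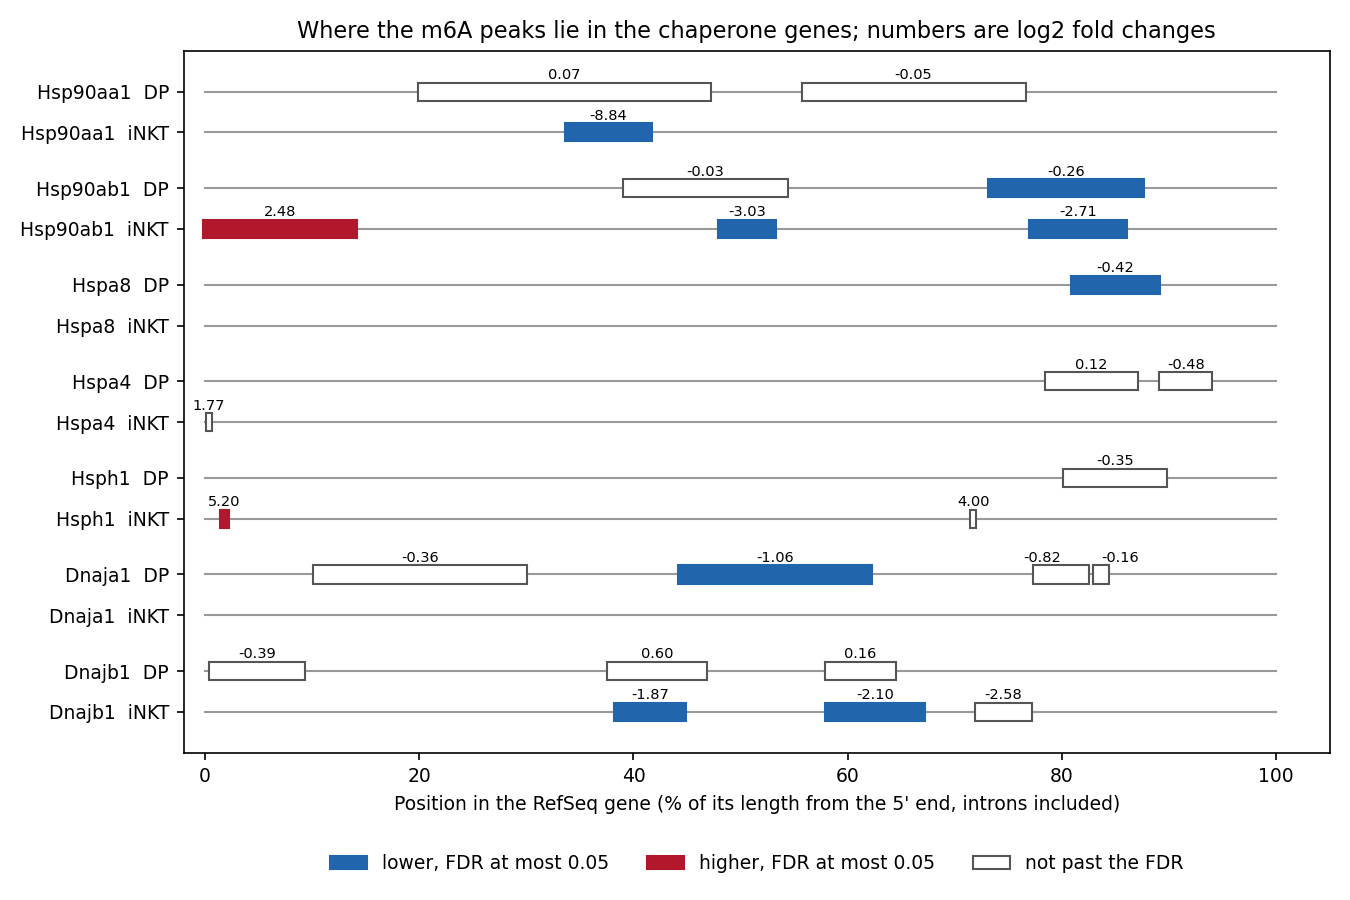
Position of the 25 chaperone peaks along their RefSeq genes (x axis, percent of gene length from the 5' end with introns included), with a line for DP and for iNKT cells per gene and the log2 fold change over each bar. Blue bars were lower, red bars higher, and white bars did not pass an FDR of 0.05. The red iNKT bars of Hsp90ab1 (2.48) and Hsph1 (5.20) lie at the 5' end, and the blue iNKT bars lie further along the gene.

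The same stretch of transcript was called in both cell types at 5 places, 2 each in Hsp90ab1 and Dnajb1 and 1 in Hsp90aa1, where peaks on 1 strand had 1 or more exonic bases in common. All 5 were lower in iNKT cells, against 38.8% of the 5755 matched pairs of the authors' deposited tables. The DP value was -0.264 for the 3' internal peak of Hsp90ab1, -0.0319 for its other internal peak, and 0.0676, 0.598 and 0.164 for Hsp90aa1 and the Dnajb1 peaks in the authors' deposited table. The iNKT values of the same places, in the same order, were -2.71, -3.03, -8.84, -1.87 and -2.10 in the authors' deposited table. Thus 3 of 5 pairs had values of opposite sign, with a small positive DP value that did not pass. The Hsp90ab1 pair around exons 8 and 9 was lower in both cell types, which held for 33 pairs, or 0.573%, in the authors' deposited tables. Only 46 of all pairs were lower in DP cells, and these 33 were among them. The tables came from different libraries. Per the labels, both m6A-seq and a variant for small inputs were used, with no word on which cells went through each. Cell type and protocol therefore cannot be told apart, and the difference between cell types was not tested.

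There were 5 iNKT member peaks without a DP counterpart, 3 at the 5' ends of Hsp90ab1, Hspa4 and Hsph1, the short internal peak of Hsph1 and the last peak of Dnajb1. None was lower in the authors' deposited table, 2 were higher, and their median log2 fold change was 2.48. The last Dnajb1 peak, at -2.58, was as negative as the matched peaks of that gene, and the difference between matched and unmatched member peaks was not tested. Among all iNKT peaks of the authors' deposited table, 38.3% of those with a DP match were lower and 2.63% were higher, with a median log2 fold change of -1.83. Of those without a match, 6.03% were lower and 8.24% were higher, with a median of -0.439.

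Position within the gene was looked at after the values were seen. With a window of 300 nt from the RefSeq 5' end, 3 iNKT member peaks touched it, with log2 fold changes from 1.77 to 5.20, and 2 were higher in the authors' deposited table. The Hsph1 peak, with the largest value, begins 271 nt from that end, near the edge of the window. No other width was run. The 7 member peaks elsewhere ran from -8.84 to 4.0, with 5 lower and 0 higher in the authors' deposited table. Over all iNKT peaks, 8.51% of the 1093 peaks near the 5' end were higher and 13.5% lower, against 5.59% higher and 20.4% lower elsewhere in the authors' deposited table. The 1 DP member peak near a 5' end, that of Dnajb1, had -0.390 without passing in the authors' deposited table. By the authors' own classes, 8.25% of 1843 iNKT peaks annotated 5' UTR were higher and 13.8% lower, and of the 4 such member peaks 2 were higher and 1, that of Dnajb1, was lower.

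Many of the member peaks combined an enrichment below the median of their table with a peak p-value smaller than its median, which held for 9 of 15 DP and 5 of 10 iNKT peaks. Over all peaks it held for 3058 of 13450 in DP cells and 2394 of 12542 in iNKT cells. The median fold enrichment of the DP member peaks was 2.93, against 4.70 over all DP peaks, and 10 of 15 lay below that median in the authors' deposited table. In iNKT cells it was 4.76 against 8.32, with 8 of 10 below in the authors' deposited table. Their peak p-values nonetheless were smaller than the median of their table for 13 of 15 DP and 7 of 10 iNKT peaks. The internal Hsp90ab1 peak with -0.0319 ranked 4 of 13450 DP peaks by p-value, and its iNKT counterpart ranked 44 of 12542 in the authors' deposited tables. Abundance of these transcripts was not measured here, so its part in the p-values and FDRs was not tested. The DP member peaks were also long and often in more than 1 block. Their median exonic length was 420 nt, against 241 nt over all DP peaks. Of these 15 peaks, 11 (73.3%) had more than 1 block, against 29.1% of all DP peaks. In iNKT cells 3 of 10 had more than 1 block, against 15.2%. A gap between blocks need not be an intron. The 2 blocks of the Dnajb1 DP peak at 83608193 to 83608592 cover 390 nt, nearly all of its span.

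**Figure D3:**
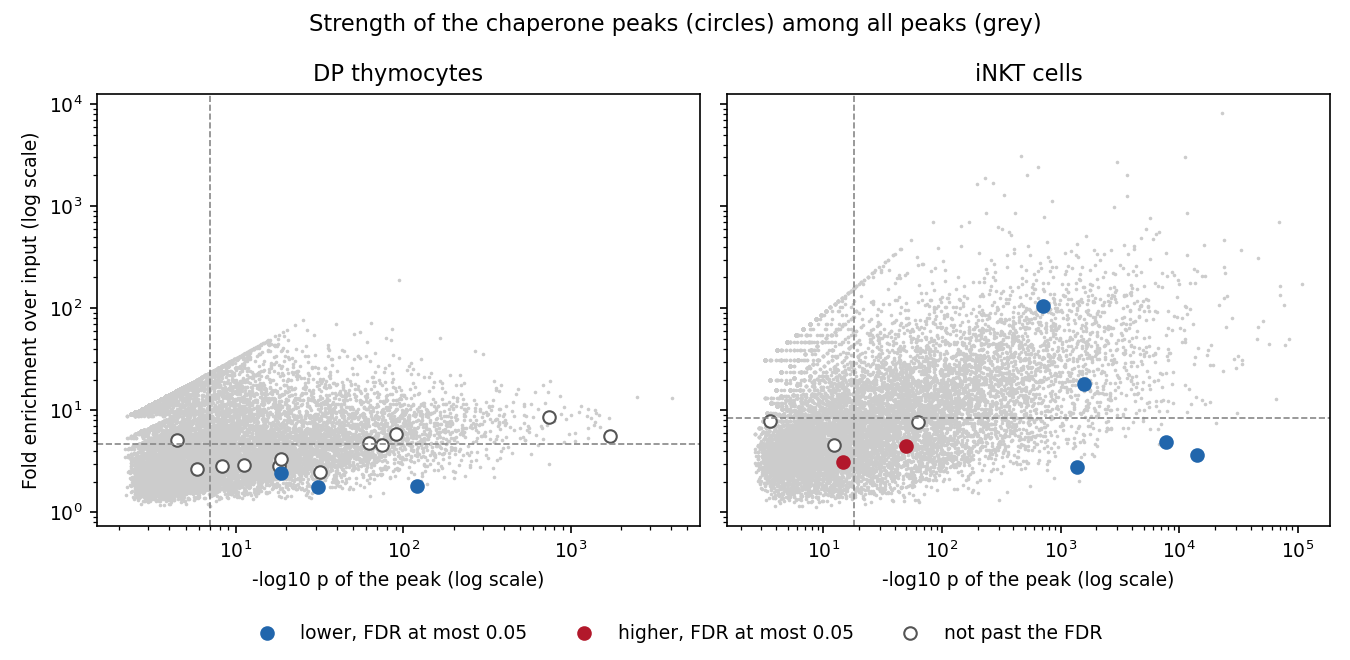
Fold enrichment over input (y axis, log scale) against -log10 of the peak p-value (x axis, log scale) for every peak in grey and for the chaperone peaks as circles, in DP thymocytes (left) and iNKT cells (right). Dashed lines are the medians of all peaks. Most circles lie below the enrichment median (10 of 15 and 8 of 10) and right of the p-value median (13 of 15 and 7 of 10).

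The wider chaperone network was described from 8 lists of 123 genes in all. In DP cells 57 of these genes had a peak and 1 was lower, 1.75%, against 1.44% of all DP genes with a peak. None was higher, against 0.876%. The lower gene was Cdc37, the co-chaperone that hands kinases to Hsp90, with a log2 fold change of -0.368 (FDR 0.00027) in the authors' deposited table. In iNKT cells 51 of the genes had a peak, 18 (35.3%) had a lower one, against 26.2% of all iNKT genes, and 5 (9.80%) a higher one, against 9.64%. The median log2 fold change over the 84 iNKT peaks was -1.10, near the -0.976 of all peaks in the authors' deposited table.

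Co-chaperones of Hsp90 and Hsp70 had a lower iNKT peak in 4 of 14 measured genes and a higher one in 2, against 26.2% and 9.64% of all iNKT genes with a peak. Counting only peaks inside the named gene, 3 of 10 were lower and 2 higher. Ptges3, which encodes the Hsp90 co-chaperone p23, had -3.85 (FDR 0.011) at its 5' end with an enrichment of 89.9 in the authors' deposited table. The immunophilin gene Fkbp4 had -1.55 (FDR 0.014) and the Hsp90 co-chaperone gene Ttc4 had -4.17 (FDR 0.0021) in the authors' deposited table. Bag6, which encodes a chaperone for tail-anchored membrane proteins, had a higher peak of 7.29 (FDR 2e-37) in the authors' deposited table. The 3 lower peaks named Unc45a lie outside it, at the position of the neighbouring gene Man2a2. They are not all on the same strand, so they cannot all come from its transcript. Grpel1, which encodes a mitochondrial nucleotide exchange factor, had a higher peak of 2.53 (FDR 0.032) in the authors' deposited table.

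Of 14 other J-domain genes with an iNKT peak, 7 had a lower one, against 26.2% of all iNKT genes with a peak, and 1 had a higher one, against 9.64%. That gene, Dnajc11, passed with -3.88 at one peak and 7.95 at another in the authors' deposited table. The lowest values were those of Dnajc21 (-6.55, FDR 7.9e-25) and Dnajc2 (-5.97, FDR 5e-18), both linked to ribosomes and their assembly, in the authors' deposited table. Dnajc8, named among spliceosome-associated proteins, had 2 peaks that fell, with -4.42 and -2.21 by the authors' deposited table. Dnajc1 also had 2, of -3.74 and -2.99, and Dnajb12, an endoplasmic reticulum J-protein gene, had -2.86 in the authors' deposited table. In DP cells 20 other J-domain genes had a peak and 0 passed in either direction by the authors' FDR. Of all DP genes with a peak, 1.44% had a lower one and 0.876% a higher one. Hspa14 was the only other Hsp70 gene with a passing iNKT peak, a higher one of 3.57 (FDR 0.019) in the authors' deposited table. None of the heat shock factor genes had a passing peak in either table, with a peak named after 1 of 5 in DP and 3 of 5 in iNKT cells. Counting only peaks inside the named gene, 0 had a peak in DP cells and 2 in iNKT cells. With so few genes and the shares over all genes given above, nothing is read from this.

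**Figure D4:**
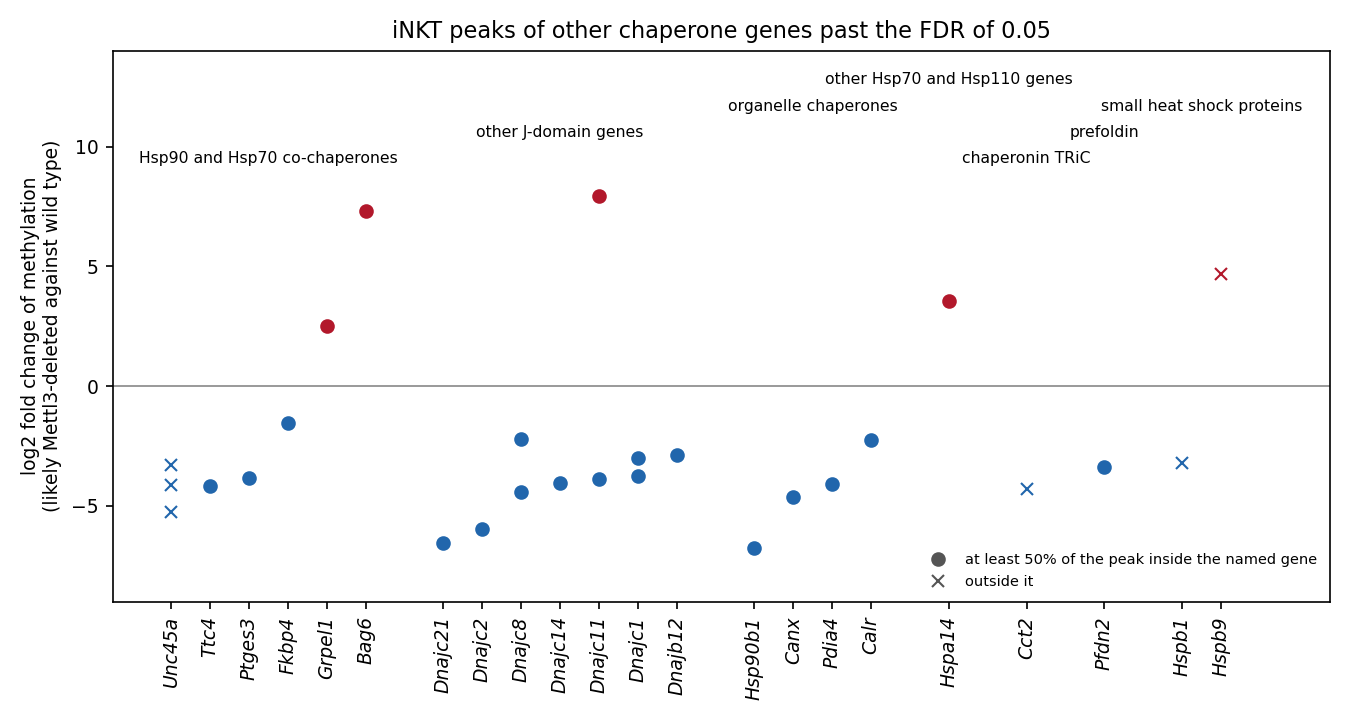
Log2 fold change (y axis) of iNKT peaks past an FDR of 0.05 in other chaperone genes (x axis, grouped by list), with circles for peaks inside the named gene and crosses for peaks outside it. Blue is lower and red is higher. Values run from -6.75 for Hsp90b1 to 7.95 for Dnajc11, and Unc45a, Cct2, Hspb1 and Hspb9 are drawn with crosses.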

How the data were processed

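The submitters' processing notes name mm10 and, with no roles, HOMER 4.9.1, RSEM 1.3.0, STAR 2.6.0a, Trim Galore 0.6.5 and FastQC 0.11.5. Per the labels, RNA fragments were about 150 nt long. The column names are those of the exomePeak package; the pooling of replicates is not given in the sources used here. Per the file headers, the authors deposited for each peak a p-value, a fold enrichment as a linear ratio, a log2 fold change between genotypes, and the log10 of p and FDR, treated as scores. Identical rows were kept 1 time, which removed 5 DP and 24 iNKT rows. Members were peaks whose symbol was one of the 7 genes, all of them named, and of each other list up to 6 passing genes by FDR. Members and lists were chosen with earlier results of these data known. Positions came from RefSeq GRCm38.p6. Matching and calling were tested on simulated data. No count model or test was run, because no values per library were used. Scripts ran under Python 3.11.15 with pandas 2.3.3, matplotlib 3.10.9 and numpy 2.4.6.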

Additional observations from a re-analysis of the deposited data

How the results depend on the processing

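The 3 lower DP member peaks fell to 1 (Dnaja1) when a change of at least 2-fold was required, and to 1 (Dnaja1) when a fold enrichment of at least 2 was required. At an FDR of 0.01 the Hspa8 peak (-0.422) no longer passed. The iNKT counts of 5 lower and 2 higher member peaks, and the 5 matched places, stayed within 1.5 times under every alternative run. Among the other chaperone genes, those with a lower DP peak went from 1 to 3 at an FDR of 0.1, and those with a higher iNKT peak from 5 to 3 at an FDR of 0.01. Counting only peaks inside the named gene, an alternative chosen after seeing the data, left 15 genes with a lower iNKT peak of 18, and 4 with a higher one of 5. No paired analysis was possible because the tables hold no values per replicate, and for the same reason no replicate could be left out. The depth of the libraries is unknown.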

Other observations

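Of 8 genes with an iNKT peak in the list of organelle chaperones, 4 had a lower one and 0 a higher one in the authors' deposited table, against 26.2% and 9.64% of all iNKT genes with a peak. No test was made on the list. Hsp90b1, which encodes the endoplasmic reticulum Hsp90, had a 3' UTR peak of -6.75 (FDR 1e-109), and Canx, which encodes the lectin chaperone calnexin, one of -4.61 (FDR 1e-141) in the authors' deposited table. Pdia4, a protein disulfide isomerase gene, had -4.08 (FDR 2.5e-46) in the authors' deposited table. Calr, which encodes calreticulin, had -2.23 (FDR 0.0044) at its 5' end, with an enrichment of 790 in the authors' deposited table. Unlike those of Hsp90ab1 and Hsph1, this peak at a gene's start was lower. In DP cells 7 organelle chaperone genes had a peak and none passed the authors' FDR in either direction. The shares over all DP genes with a peak were 1.44% lower and 0.876% higher.

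Of 8 TRiC chaperonin genes, 4 (Cct2, Cct5, Cct6a and Tcp1) had a DP peak. None passed the authors' FDR, against 1.44% lower and 0.876% higher over all DP genes with a peak. In iNKT cells 2 had a peak. The passing one named Cct2 (-4.31 in the authors' deposited table) lies in the neighbouring gene Frs2. Of 6 prefoldin genes, 2 had an iNKT peak, and Pfdn2 had a lower one of -3.36 (FDR 0.015) in the authors' deposited table. The passing iNKT peaks named after small heat shock protein genes lie in neighbours as well, that of Hspb1 (-3.20 in the authors' deposited table) in Ywhag and that of Hspb9 (4.68 in the authors' deposited table) in Rab5c.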
